A study of Mus musculus with 21 samples.

Results

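Microglia of Fgg γ390–396A mice were compared between the first and the seventh day after traumatic brain injury, modelled in mice by controlled cortical impact (CCI). They make up 6 of the 21 libraries of the study, 3 at 1 d and 3 at 7 d. In these knock-in mice fibrinogen still forms clots but lacks the site that the leukocyte integrin CD11b/CD18 binds, so the comparison asks how the microglial transcriptome moved from the acute to the subacute phase when fibrin could not engage that receptor. Each library held 40000 CD45low CD11b+ cells sorted from a block of tissue around the lesion, with 2 brains pooled, from C57BL/6-background males aged 17 to 24 weeks. Wild-type (WT) microglia were collected at the same days (3 and 3 libraries), and 3 libraries came from sham-operated WT mice. No sham-operated mutant was sequenced, so genotype and injury cannot be told apart in any comparison of mutant microglia with sham. The mutation is carried in all cells, and each microglia library is a separate pool of brains. Whether the 1 d libraries of infiltrating myeloid cells came from the same pools as the 1 d microglia is not stated.

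Microglia are the resident macrophages of the brain. At rest they express purine and chemokine receptors such as P2ry12 and Cx3cr1. After injury they secrete cytokines, enter the cell cycle, shift their metabolism and, later, can take on a disease-associated microglia (DAM) profile with high Apoe, Clec7a and Axl. Fibrin, which enters the brain through leaking vessels, activates them through CD11b (Itgam) and CD18 (Itgb2).

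The deposited counts summed to between 24448811 and 51875767 per library in the 6 mutant libraries, of which 47.1% to 52.73% fell on ribosomal RNA genes. That share was 49.6 ± 2.65% (SD, n = 3) at 1 d and 51.2 ± 2.24% (n = 3) at 7 d (exact permutation test, two-sided, p = 0.6, where 3 against 3 cannot go below 0.1). Levels are given as CPM, counts scaled to the size of each library, after TMM scaling, and the deposited counts were already scaled for transcript length. Microglial identity was clear in the levels: P2ry12 was at 724 to 1632 CPM at 1 d and 2115 to 2433 CPM at 7 d. Markers of other brain cells summed to at most 56.31 CPM per list, and 3 of these lists were higher at 7 d without overlap (exact permutation p = 0.1 each). Oligodendrocyte lineage markers summed to 25.27, 33.9 and 28.53 CPM at 1 d and 50.7, 56.31 and 41.73 CPM at 7 d, and astrocyte markers to 27.82, 19.41 and 24.67 CPM and then 39.97, 43.32 and 43.95 CPM. Neuronal markers summed to 4.863 to 6.041 CPM and then 6.991 to 8.015 CPM, and endothelial and mural markers, which overlapped, to 10.62 to 12.91 CPM over both days. Neutrophil markers summed to 459.3, 143 and 107.8 CPM at 1 d and to 398.8, 480.1 and 451.9 CPM at 7 d, and markers of infiltrating monocytes and macrophages to 203.2, 101.7 and 102.8 CPM at 1 d and 58.74, 89.61 and 67.55 CPM at 7 d (exact permutation p = 0.3 and 0.1). Replicate 1 of the 1 d group thus stood apart: S100a8, a neutrophil alarmin, was at 133 CPM in it against 16.2 and 12.4 CPM, and Ccr2, the chemokine receptor of infiltrating monocytes, at 27.7 CPM against 1.41 and 2.65 CPM. Much of the neutrophil sum was a single member, Csf3r, at 99.5, 80.3 and 82.7 CPM at 1 d and 203, 189 and 209 CPM at 7 d. In sham replicate 1 Csf3r made up 158.1 of the 160.4 CPM of that list. In bulk RNA, fewer cells of a type and less RNA per cell cannot be told apart. Fgg itself, a liver gene on chromosome 3 (83007724 to 83015049, plus strand, GRCm38), was at no more than 0.502 CPM, and the substitution it carries is not visible in counts per gene. It was above 0 in all 6 mutant libraries and listed at 0 in all WT and sham microglia, at levels of a few reads.

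Between 1 d and 7 d, most of the genes that passed the test in mutant microglia were lower at 7 d. Levels are relative to each library, so a change in total RNA was not measured. Of 23815 genes tested, 844 (3.54%) passed the test (edgeR's quasi-likelihood test, Benjamini-Hochberg adjusted p below 0.05 and an absolute log2 fold change above 1). Among them, 686 (2.88%) were lower and 158 (0.663%) were higher at 7 d. An unadjusted p below 0.05 was reached by 3894 genes. The libraries of the 2 days did not overlap for 682 of the 686 and 157 of the 158. Over all genes tested, 13.3% were higher and 14% lower at 7 d without overlap. Shares of all genes, here and below, include weakly expressed ones: 12197 of the 23815 had a mean above 1 CPM over the microglia libraries. Against sham, 1582 genes (6.64%) passed at 1 d, 1308 (5.49%) higher and 274 (1.15%) lower, and 158 (0.663%) passed at 7 d, 150 (0.63%) higher and 8 (0.0336%) lower. The median log2 fold change of all genes tested was 0. The count rested on individual libraries: it was 463 without replicate 2 and 554 without replicate 3 of the 1 d group, and 1163 without replicate 1. DESeq2 called 1209 genes and split them differently, with 61.3% lower against 81.3% in the main test.

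Chaperone and replication genes were among the lists with the most decreases, and promoters of members that share a sequence element are shown before their values. RefSeq promoters (GRCm38.p6, 250 bases upstream to 50 bases downstream of the transcript start, 5′ to 3′ on the gene's strand) were searched on both strands for the endoplasmic reticulum (ER) stress element, which is CCAAT, then 9 bases of any kind, then CCACG, and for 4 E2F-type sites (TTTCCCGC, TTTCGCGC, TTTGGCGC and TTTGCCGC), the element of S-phase genes. Capitals mark the matches, which can lie on the opposite strand. The ER chaperone genes below were lower at 7 d. They are Hspa5 (chr2:34771840-34772139, plus strand), Creld2 (chr15:88819396-88819695, plus strand), Pdia6 (chr12:17266339-17266638, plus strand) and Calr (chr8:84846882-84847181, minus strand).
Hspa5: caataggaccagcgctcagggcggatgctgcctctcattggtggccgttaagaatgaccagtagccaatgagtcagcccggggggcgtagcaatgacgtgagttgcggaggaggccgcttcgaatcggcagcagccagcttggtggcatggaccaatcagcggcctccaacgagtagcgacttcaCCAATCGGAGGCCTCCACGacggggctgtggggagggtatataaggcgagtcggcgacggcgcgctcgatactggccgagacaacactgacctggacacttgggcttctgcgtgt
Creld2: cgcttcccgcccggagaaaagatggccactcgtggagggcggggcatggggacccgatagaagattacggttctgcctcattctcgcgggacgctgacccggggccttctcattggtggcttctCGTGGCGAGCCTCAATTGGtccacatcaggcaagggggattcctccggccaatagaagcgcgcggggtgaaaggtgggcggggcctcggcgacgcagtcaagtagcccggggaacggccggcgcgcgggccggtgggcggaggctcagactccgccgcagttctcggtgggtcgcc
Pdia6: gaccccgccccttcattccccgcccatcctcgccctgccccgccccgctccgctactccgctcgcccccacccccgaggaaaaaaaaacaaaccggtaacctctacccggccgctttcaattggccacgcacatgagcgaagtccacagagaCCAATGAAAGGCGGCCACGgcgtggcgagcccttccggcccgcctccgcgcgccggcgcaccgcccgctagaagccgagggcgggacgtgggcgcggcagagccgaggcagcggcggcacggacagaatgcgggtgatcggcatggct
Calr: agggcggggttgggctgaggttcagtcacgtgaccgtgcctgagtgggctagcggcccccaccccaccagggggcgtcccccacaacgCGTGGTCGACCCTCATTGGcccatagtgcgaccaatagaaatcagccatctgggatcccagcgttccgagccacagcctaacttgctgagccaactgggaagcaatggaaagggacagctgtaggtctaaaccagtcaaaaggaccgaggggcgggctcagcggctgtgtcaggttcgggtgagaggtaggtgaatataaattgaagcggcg
The element occurred in 5 of the 10 chaperone and unfolded protein response genes that fell and had a promoter in the table (also in Dnajc3). It occurred in 2 of 17 members that did not pass the test. Over all 27025 genes with a promoter the share was 0.137%, and over all 32851 promoters of this length 0.119%.

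The replication genes below also fell, and the promoters shown carried E2F-type matches, some of which overlap each other. They are Mcm5 (chr8:75109259-75109558, plus strand), Mcm6 (chr1:128359656-128359955, minus strand) and Mcm7 (chr5:138171834-138172133, minus strand).
Mcm5: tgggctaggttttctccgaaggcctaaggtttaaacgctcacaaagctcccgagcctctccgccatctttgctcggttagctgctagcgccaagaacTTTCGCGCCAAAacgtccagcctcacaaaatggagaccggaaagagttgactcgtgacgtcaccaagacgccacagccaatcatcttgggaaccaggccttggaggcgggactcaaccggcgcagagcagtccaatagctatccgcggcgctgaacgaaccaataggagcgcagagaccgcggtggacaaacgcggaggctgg
Mcm6: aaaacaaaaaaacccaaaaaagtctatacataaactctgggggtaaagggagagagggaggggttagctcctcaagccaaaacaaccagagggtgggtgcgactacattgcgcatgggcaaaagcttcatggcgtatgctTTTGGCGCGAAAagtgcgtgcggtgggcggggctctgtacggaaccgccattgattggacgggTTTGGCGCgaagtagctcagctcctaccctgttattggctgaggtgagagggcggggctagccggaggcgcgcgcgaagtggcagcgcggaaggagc
Mcm7: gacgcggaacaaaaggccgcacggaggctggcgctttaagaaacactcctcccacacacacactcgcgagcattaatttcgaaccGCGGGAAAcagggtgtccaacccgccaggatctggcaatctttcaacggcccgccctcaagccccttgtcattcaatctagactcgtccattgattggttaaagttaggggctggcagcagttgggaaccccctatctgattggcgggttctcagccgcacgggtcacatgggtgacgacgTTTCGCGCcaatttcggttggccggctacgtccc
Such a match was present in 5 of 11 cell cycle genes that fell and had a promoter in the table (also in Mcm3 and Uhrf1). It was present in 1 of 29 members that did not pass, in 2.6% of all genes and in 2.26% of all promoters. A gene was counted when any of its promoters matched, and Mcm7 and Uhrf1 each had another promoter without a match. These matches describe the letters of the windows and not binding or regulation in these cells. Hspa5, Pdia6, Calr, Dnajc3, Mcm3, Mcm6, Mcm7 and Uhrf1 are named here after their values were seen.

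Decreases with the smallest adjusted p-values were in a zinc and iron importer, in scavenger and protease genes, and in genes of replication, nuclear transport and ribosome assembly. Slc39a14 (chromosome 14, 70303469 to 70351425, minus strand), which encodes the metal importer ZIP14, was at 45.1, 81.4 and 75.6 CPM at 1 d and 7.17, 5.17 and 5.95 CPM at 7 d, a log2 fold change of -3.46 ± 0.23 (SE, adjusted p = 6.92e-08). Msr1, scavenger receptor A, was at 126, 325 and 238 CPM at 1 d and 6.55, 9.22 and 8.21 CPM at 7 d (log2 fold change -4.84 ± 0.50, adjusted p = 3.0e-05). Adam8, a membrane metalloprotease of activated leukocytes, was at 28.2, 95.1 and 60.1 CPM and then 0.819, 1.79 and 1.94 CPM (log2 fold change -5.35 ± 0.56, adjusted p = 3.0e-05). For each of the 3 genes the 2 days did not overlap, and the 7 d libraries overlapped the range of sham. Naaa, the lysosomal acid amidase that degrades palmitoylethanolamide, fell from 71.6 to 118 CPM at 1 d to 10.4 to 15.5 CPM at 7 d. Ran, the GTPase of nuclear transport, fell from 68.4 to 110 CPM to 19.7 to 24 CPM. Nop58 and Nhp2, core proteins of the box C/D and H/ACA nucleolar RNA particles, had log2 fold changes of -1.78 and -2.07, Eef1g, a subunit of the translation elongation factor, -1.85, and Ola1, an Obg-family ATPase, -1.59.

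**Figure D1:**
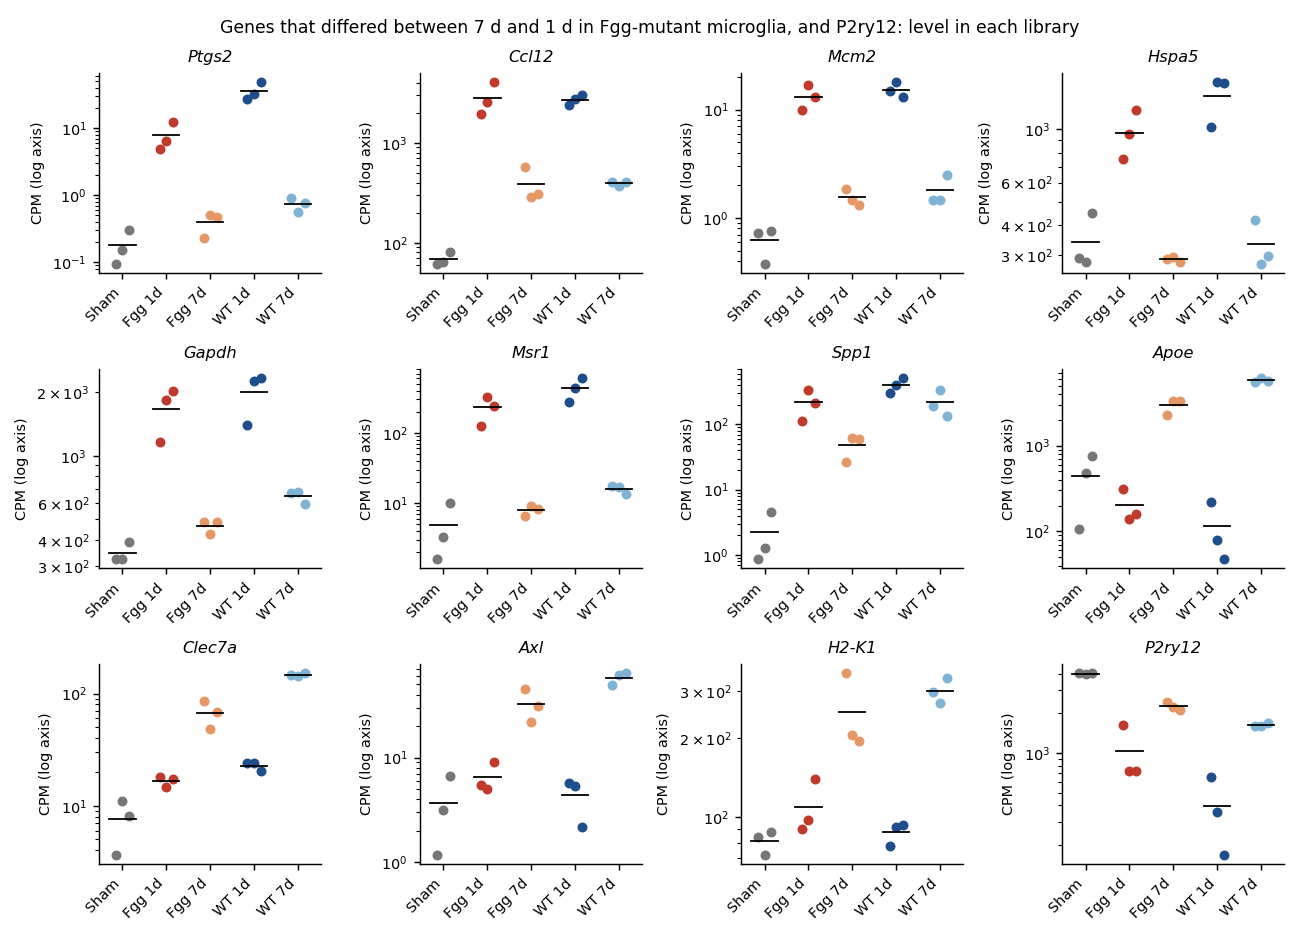
Level of 12 genes in each library of sham, Fgg-mutant (Fgg) and WT microglia, in CPM on a log axis. Points are libraries (n = 3 per group) and bars are group means. Ptgs2, Ccl12, Mcm2, Hspa5, Gapdh, Msr1 and Spp1 were lower and Apoe, Clec7a, Axl and H2-K1 higher at 7 d than at 1 d in mutant microglia, with no overlap between the days. P2ry12 did not pass the test in them.

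Of 32 cytokines, chemokines and their regulators tested, 7 fell and 0 rose, against 2.88% and 0.663% of all genes, and the list's median log2 fold change was -1.16. The same 2 shares of all genes apply beside the counts of each list below. Ptgs2, the inducible cyclooxygenase, was at 4.86, 6.42 and 12.5 CPM at 1 d and 0.231, 0.502 and 0.466 CPM at 7 d (log2 fold change -4.33 ± 0.49, adjusted p = 6.0e-05). Ccl12 was the most abundant chemokine of those that fell, at 1938, 2554 and 4037 CPM and then 569, 286 and 310 CPM (log2 fold change -2.87 ± 0.35). All 3 of its 7 d libraries stayed above sham (62 to 80.4 CPM), and it passed the test against sham at 7 d (log2 fold change 2.50). Ccl2, a ligand of CCR2, went from 101, 98.9 and 230 CPM to 40.8, 25.7 and 24.9 CPM, likewise above sham. Il1rn, the interleukin-1 receptor antagonist, fell from 33 to 61.1 CPM to 4.34 to 5.58 CPM, and Il4ra, Tnfsf9 and Ccl7 also fell. Tnf had a log2 fold change of -1.21 (30, 21.2 and 43.1 CPM, then 14.4, 15.7 and 10.5 CPM) with an adjusted p of 0.15, or 0.034 in a fit on the 6 compared libraries alone. Ccl3 (-1.04) and Il1b (-1.06) had adjusted p-values of 0.16 and 0.34, and the 2 days overlapped for Il1b. Among 31 immediate early genes and NF-kB feedback genes, only Bcl3 and Dusp5 fell and none rose, with a median of 0.37. Both calls were lost without replicate 1 or replicate 3 of the 7 d group.

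Of 32 unfolded protein response and chaperone genes, which fold proteins in the ER, cytosol and mitochondria, 14 fell and 0 rose. Those that fell were 43.8% of the list, against 2.88% of all genes, and the median log2 fold change was -0.93. Hspa5, which encodes the ER chaperone BiP, was at 750, 955 and 1201 CPM at 1 d and 290, 294 and 281 CPM at 7 d (log2 fold change -1.75 ± 0.25, adjusted p = 0.00025). The 7 d libraries lay within the sham range of 280 to 448 CPM. Creld2, an ER-resident protein, went from 37.4, 53.3 and 79.2 CPM to 12.1, 14.5 and 11.7 CPM, and Manf, a secreted ER stress factor, from 111, 156 and 207 CPM to 45.6, 39.6 and 47 CPM. For both genes all 7 d libraries were below all sham libraries (15 to 20.3 CPM and 54.5 to 65.2 CPM). Sdf2l1, a partner of BiP, had a log2 fold change of -1.72, and Hspd1, the mitochondrial chaperonin Hsp60, -1.96. Calr, Pdia3, Pdia4, Pdia6 and Dnajc3 of the ER and Hsp90aa1, Hsp90ab1, Hspa8 and Hsph1 of the cytosol made up the rest of the 14. The transducers and transcription factors of the pathway did not pass the test: Xbp1 had a log2 fold change of -0.51, Atf4 -0.16, Atf6 -0.45 and Ddit3 1.01. The heat-inducible Hspa1a and Hspa1b had values of 0.62 and -0.03. Across the omissions of a single library the number that fell stayed between 11 and 16.

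The cell cycle genes that fell were mostly those of DNA replication. Of 50 members tested, 14 (28%, against 2.88% of all genes) fell and 0 rose, with a median log2 fold change of -1.45. Values were below 0 for 46 of the 50, and with DESeq2 21 members fell. Pcna, the replication clamp, was at 101, 113 and 105 CPM at 1 d and 35.9, 30.6 and 35.8 CPM at 7 d (log2 fold change -1.64 ± 0.16, adjusted p = 1.3e-05). Mcm2 was at 9.85, 16.8 and 13 CPM and then 1.87, 1.47 and 1.33 CPM (-3.08 ± 0.34), still above all sham libraries (0.38 to 0.754 CPM). Mcm4 (log2 fold change -2.48) and Mcm5 (-3.30) fell too, as did Mcm3, Mcm6 and Mcm7, so that the whole MCM2-7 helicase was lower. Uhrf1, Rrm1, Tyms, Ccne2, E2f1, Ccnd1 and Cdca8 completed the list. Besides Cdca8, a mitotic gene, which fell, the proliferation markers Mki67 and Top2a did not pass. Mki67 was at 9.47, 5.49 and 10 CPM and then 4.63, 3.73 and 3.8 CPM (-1.03 ± 0.51, adjusted p = 0.33), and Top2a at 11.4, 10.1 and 11.5 CPM and then 3.3, 2.08 and 4.77 CPM (-1.70 ± 0.59, adjusted p = 0.12). In a fit on the 6 compared libraries alone both passed, with adjusted p-values of 0.048 and 0.014.

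Energy metabolism moved the same way. Of 30 glycolysis and hypoxia genes 12 (40%) fell and 0 rose (median -0.998). Of 35 oxidative phosphorylation genes 13 (37.1%) fell and 0 rose, all 35 having a value below 0 (median -0.86). The share of all genes that fell was 2.88%. Gapdh was at 1157, 1838 and 2021 CPM at 1 d and 487, 425 and 489 CPM at 7 d (log2 fold change -1.84 ± 0.22, adjusted p = 7.5e-05). The 7 d libraries remained above sham (325 to 390 CPM). Ldha, lactate dehydrogenase A, had a log2 fold change of -1.89, Pgk1, phosphoglycerate kinase, -2.06, and Mif, a cytokine with tautomerase activity placed in this list as a hypoxia target, -2.09. The glucose transporter Slc2a1 and the lactate exporter Slc16a3 fell as well. Hif1a (0.19), Hk1 (0.01) and Hk2 (0.17) did not pass. In the respiratory chain, Atp5g1, a subunit of ATP synthase, went from 204, 346 and 447 CPM to 90, 78.6 and 98 CPM (-1.90 ± 0.26), and Uqcrb and Cyc1 of complex III and Cox5a of complex IV had log2 fold changes of -1.64, -1.76 and -1.40. Of 34 genes of reactive oxygen species and antioxidants, 6 (17.6%, against 2.88% of all genes) fell and 0 rose. They were thioredoxin Txn1 (45.1, 57.6 and 65.4 CPM, then 16.1, 16.5 and 15.9 CPM), its reductase Txnrd1, Prdx1, Sod2, Slc7a11 and the mitochondrial outer membrane protein Tspo (57.6, 75.6 and 95.3 CPM, then 32.9, 27.4 and 29.5 CPM). None of them encodes a subunit of the NADPH oxidase. Prdx1 had a log2 fold change above -1 with DESeq2, with its size factors and without replicate 3 of the 1 d group. Hmox1, heme oxygenase 1, went from 37.3, 37.4 and 65.6 CPM to 19.3, 26.2 and 30.6 CPM without overlap, with an adjusted p of 0.079. Sqle, the squalene epoxidase, and Cyp51 were the 2 of 30 sterol and fatty acid synthesis genes that fell (log2 fold changes -3.11 and -1.26). They were 6.67% of the list, against 2.88% of all genes. The Cyp51 call was lost without replicate 2 of the 1 d group or replicate 1 of the 7 d group. Cytosolic ribosomal proteins had a median of -0.43, and 2 of 42 (4.76%, against 2.88% of all genes), Rps2 and Rps27l, fell. Without replicate 1 of the 1 d group 10 of 42 fell. Genes such as Gapdh, Rps2, Eef1g and Ran have many processed pseudogenes, and 780 of the 844 genes that passed were annotated as protein coding, so the split of reads between copies is uncertain.

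**Figure D2:**
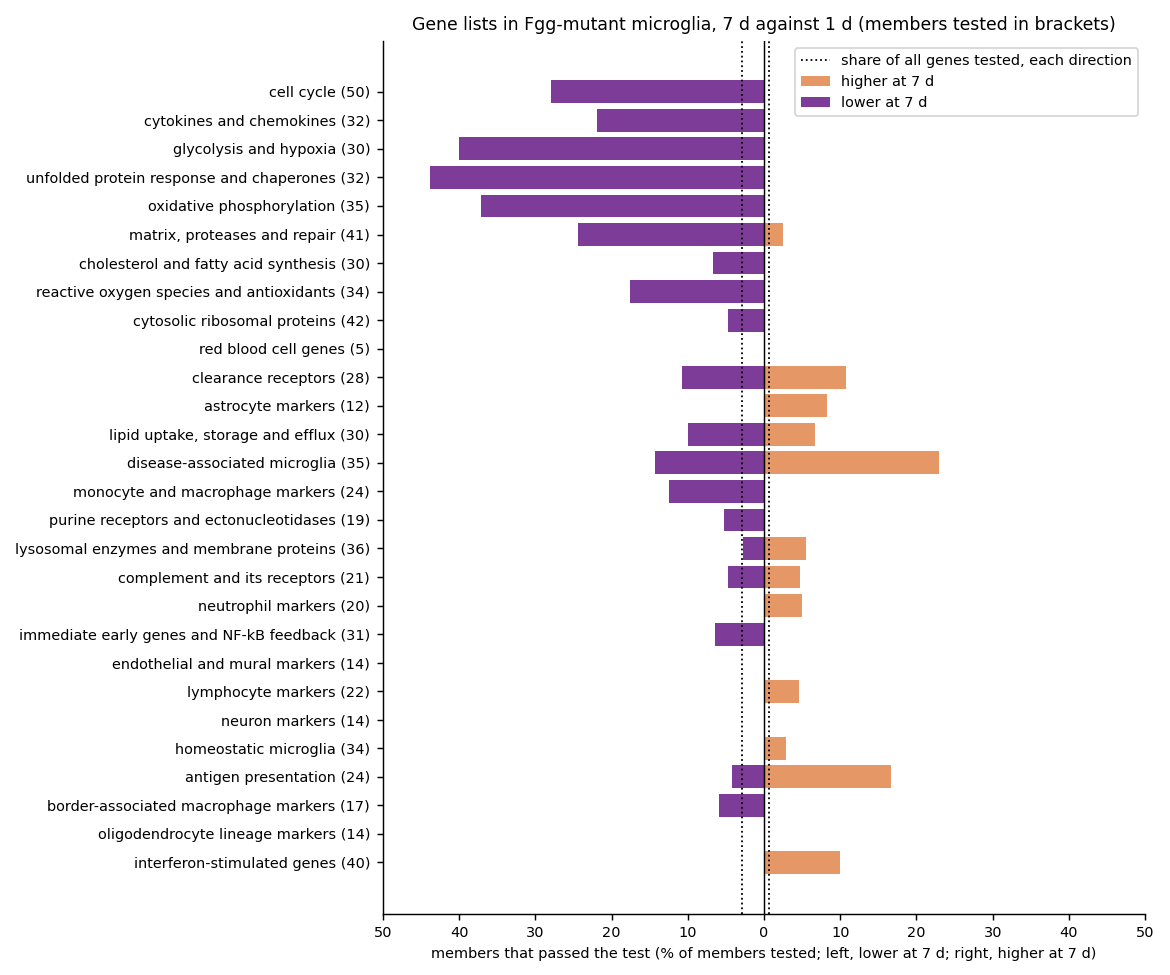
Share of each gene list that passed the test in mutant microglia, in percent of the members tested, with the lists ordered by their median log2 fold change. Bars to the left are members lower and bars to the right members higher at 7 d, and dotted lines are the shares of all genes tested (2.88% lower, 0.663% higher). Chaperone, glycolysis and respiratory genes have the longest bars, all to the left, and disease-associated microglia genes have bars on both sides.

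The DAM genes split into a part that rose and a part that fell. Of 35 tested, 8 rose and 5 fell, against 0.663% and 2.88% of all genes, and the median was 0.18. Apoe (chromosome 7, 19696109 to 19699188, minus strand), the lipid carrier, was at 313, 138 and 159 CPM at 1 d and 2279, 3340 and 3278 CPM at 7 d, against 108, 476 and 754 CPM in sham (log2 fold change 7 d against 1 d 3.87 ± 0.61, adjusted p = 0.00065). Clec7a, the beta-glucan receptor dectin-1, was at 18.1, 14.7 and 17.4 CPM and then 85.7, 48.8 and 68.5 CPM (2.02 ± 0.32). Axl, a receptor kinase for apoptotic cells, was at 5.49, 4.96 and 9 CPM and then 45.4, 22.1 and 30.9 CPM (2.35 ± 0.49). All 3 of these genes also passed the test against sham at 7 d. Igf1 (log2 fold change 2.71), Itgax (1.51), Gpnmb (2.28), Lgals3bp (1.10) and the lysosomal protease Ctsd (1.05) rose too, with overlap between the days for Lgals3bp (112, 134 and 264 CPM, then 485, 256 and 349 CPM). Of the 5 that fell, Lpl, Spp1, Ch25h and Lgals3 stayed above all sham libraries and Capg overlapped them. Lpl, lipoprotein lipase, went from 148, 284 and 218 CPM to 35.6, 31.4 and 47.5 CPM (-2.50 ± 0.53) with sham at 4.49 to 6.33 CPM. Spp1, osteopontin, went from 112, 334 and 215 CPM to 26.6, 62.3 and 58.9 CPM (-2.16 ± 0.51) with sham at 0.861 to 4.55 CPM. Ch25h, cholesterol 25-hydroxylase, Lgals3, galectin-3, and Capg had log2 fold changes of -3.13, -2.29 and -1.81. Cst7 had a value of 0.66, and Trem2 and Tyrobp, the receptor and adaptor of this program, of 0.40 and 0.18. None of the 3 passed the test. The number that rose was 4 without replicate 2 and 5 without replicate 3 of the 1 d group. The call was lost for Spp1 without replicate 2 of the 1 d group or replicate 1 of the 7 d group, for Igf1 without replicate 2 or 3 of the 1 d group or replicate 2 of the 7 d group, and for Itgax without replicate 1 or 3 of the 1 d group or replicate 1 of the 7 d group. Axl had an adjusted p of 0.051 without replicate 2 of the 1 d group, and Ctsd a log2 fold change below 1 without replicate 3 of the 1 d group.

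**Figure D3:**
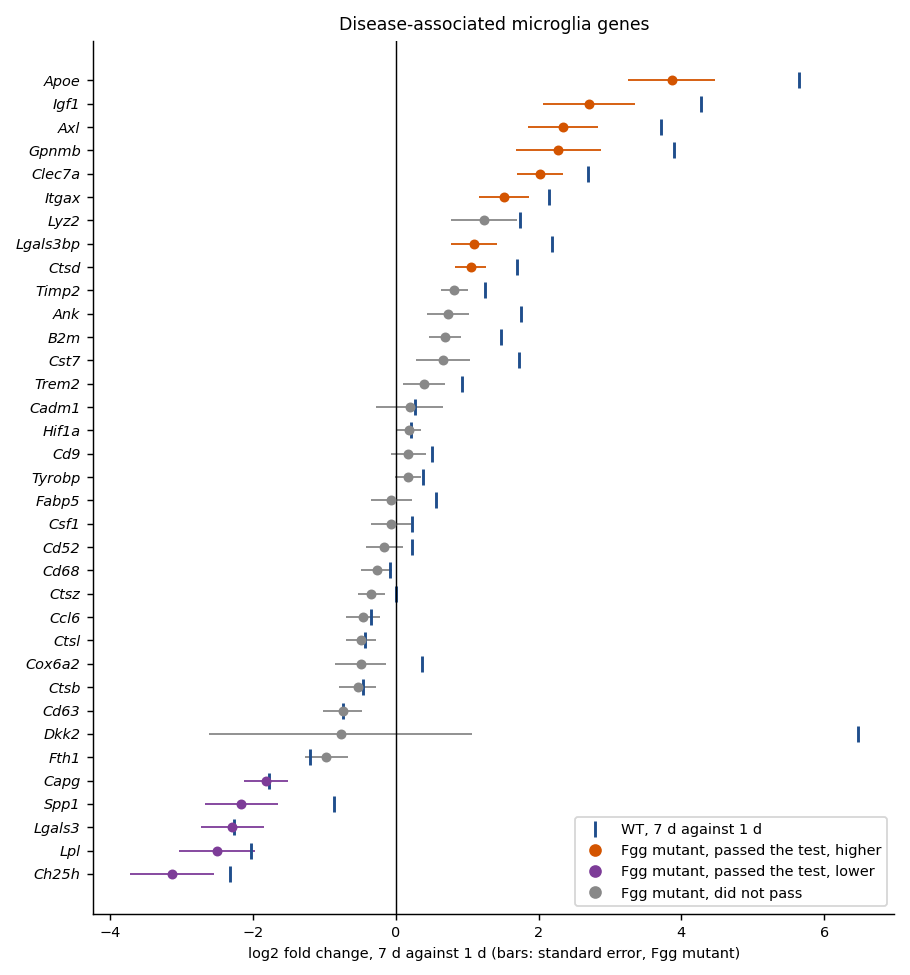
Log2 fold change, 7 d against 1 d, of the 35 DAM genes. Points with standard error bars are mutant microglia (3 against 3 libraries) and ticks are WT microglia. Apoe, Igf1, Axl, Gpnmb and Clec7a sit above 2 and Ch25h, Lpl, Lgals3 and Spp1 below -2 in mutant microglia.

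Increases in the antigen presentation list were in class I genes. Of 24 genes of the list, 4 rose and 1 fell (median 0.69). H2-K1 was at 90.6, 97.3 and 139 CPM at 1 d and 351, 205 and 195 CPM at 7 d (log2 fold change 1.20 ± 0.22, adjusted p = 0.0022). H2-D1 was at 122, 152 and 183 CPM and then 443, 297 and 251 CPM (1.12 ± 0.24), with sham at 86.1 to 141 CPM. The nonclassical H2-T23 (1.31) and H2-Q7 (2.48) rose too, and H2-Q4 (1.52), which is outside the list, was among the 12 increases with the smallest adjusted p. Class I genes are near-identical copies, so reads may be shared between them. Replicate 1 of the 7 d group was the highest for each of these 5 genes, and without it 1 member of the list rose in place of 4. Ifi30, a lysosomal thiol reductase of class II processing, fell (-1.05), and its call was lost in several alternatives, with the log2 fold change above -1 when DESeq2 size factors were used. The class II genes H2-Ab1 (1.16), H2-Aa (1.14), H2-Eb1 (1.29) and Cd74 (0.68) did not pass.

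Interferon-stimulated genes differed among replicates of the same day. Of 40 tested, 4 rose and 0 fell, with a median of 0.86, and 38 of 40 had all 7 d libraries above all sham libraries, as 8.45% of all genes did. The 4 were Slfn8 (26.8, 14.4 and 32.5 CPM, then 61.4, 49.8 and 49.9 CPM), Irgm1, Parp14 and Ddx58, which encodes the RNA sensor RIG-I. The list summed to 737.3, 536 and 1732 CPM at 1 d and 2017, 1220 and 1373 CPM at 7 d, so replicate 3 of the 1 d group lay within the 7 d range. Without that replicate 18 members rose and the median was 1.59. Without replicate 2 of the 1 d group or replicate 1 of the 7 d group none rose, and without replicate 1 of the 1 d group 2 rose. DESeq2 called 13, and a fit on the 6 compared libraries alone called none. Isg15 was at 17.9, 8.81 and 64.6 CPM and then 39.8, 18.5 and 18.8 CPM, and Irf7, an interferon regulatory factor, at 5.52, 3.3 and 17.1 CPM and then 26.4, 11.1 and 14.6 CPM. Neither passed, and their days overlapped.

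Other increases with the smallest adjusted p-values were in genes outside these lists. Mpeg1, the pore-forming protein perforin-2, was at 142, 143 and 155 CPM at 1 d and 378, 335 and 319 CPM at 7 d (log2 fold change 1.23 ± 0.16, adjusted p = 0.00015). Klhl24, a kelch-like ubiquitin ligase adaptor, was at 8.82, 3.47 and 5.14 CPM and then 21.7, 20.5 and 24 CPM (1.92 ± 0.28), with sham at 21.2 to 25.6 CPM. Itm2b, the membrane protein BRI2, went from 450, 385 and 408 CPM to 1017, 808 and 910 CPM, and Ypel3, a growth-suppressing gene, from 39.5, 20 and 23.4 CPM to 103, 90.4 and 107 CPM. Rcbtb2 (1.45), Trim12c (1.71), N4bp2l1 (1.29), Hacd4 (1.63) and Tent5a (1.52) completed the protein-coding genes with the smallest adjusted p-values. Of these genes Trim12c alone had all 7 d libraries above sham (22.4 to 27.5 against 9.41 to 17.3 CPM), and the others overlapped sham.

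Homeostatic genes had mostly positive values, but a single member (2.94%, against 0.663% of all genes higher) passed the test. Of 34 tested, 30 had a log2 fold change above 0, with a median of 0.45, and Cd33, an inhibitory sialic acid receptor, rose (173, 91.2 and 87.7 CPM, then 370, 345 and 327 CPM, with sham at 314 to 334 CPM). P2ry12 was at 1632, 724 and 728 CPM at 1 d and 2433, 2227 and 2115 CPM at 7 d, below the sham libraries (3954 to 4021 CPM) at both days (log2 fold change 1.14 ± 0.43, adjusted p = 0.16). Without replicate 1 of the 1 d group, the 1 d library with the highest monocyte and neutrophil markers, P2ry12 passed (adjusted p = 0.0351) and 5 members rose. Without replicate 2 or replicate 3 of the same group no member rose. Sall1, a microglial identity factor, was at 126, 92 and 85.3 CPM and then 179, 140 and 133 CPM, and Mertk, a phagocytic receptor kinase, at 96.4, 96 and 101 CPM and then 123, 135 and 129 CPM, both without overlap and with adjusted p-values of 0.35 and 0.21. Tmem119 and Cx3cr1 had log2 fold changes of 0.10 ± 0.27 and -0.01 ± 0.26, with overlapping days, and their signs turned under other scalings or omissions. For 24 of the 34 genes all 7 d libraries were below all sham libraries, as for 7.2% of all genes.

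The receptor that the mutated fibrinogen cannot bind was expressed at both days. Itgam was at 354, 442 and 388 CPM at 1 d and 300, 339 and 309 CPM at 7 d (log2 fold change -0.32 ± 0.16, adjusted p = 0.33), and Itgb2 at 86.4, 94.3 and 96.5 CPM and then 85, 74.1 and 79.9 CPM (-0.21 ± 0.14, adjusted p = 0.47). Complement genes showed 1 increase, Itgax, and 1 decrease, C5ar1, the C5a receptor, which went from 173, 341 and 209 CPM to 40.2, 45.5 and 37.4 CPM (-2.55 ± 0.33). C1qa, C1qb and C1qc had values between -0.14 and 0.14. Among 28 clearance receptors Clec7a, Axl and the phosphatidylserine receptor Cd300a rose and Msr1, Marco and the bridging ligand Gas6 fell. The calls of Marco and Gas6 were lost when any of several libraries was left out, replicate 2 of the 1 d group among them. In the lipid handling list Apoe and Apoc1 rose and Msr1, Ch25h and Lpl fell. Apoc1 was at 0.507, 0 and 0.241 CPM at 1 d and 17, 13.1 and 12.4 CPM at 7 d. Of 36 lysosomal genes the proteases Ctsd and Ctsh rose (5.56%, against 0.663% of all genes) and Ctsc fell, with a median of 0.29. The share that fell, 2.78%, was near that of all genes, 2.88%. The Ctsh call was lost in 4 settings, among them the omission of replicate 2 of either day. Of 41 matrix, protease and repair genes 10 fell and Igf1 rose. The falls included Adam8, Adam9, Tgfbi, Fn1, Arg1, Plaur, Mmp12 and Anxa2, besides Gas6 and Timp1, which was listed at 0 in all 7 d libraries and at 0.0804 to 1.16 CPM at 1 d. The Adam9 call was lost with DESeq2, with its size factors and without replicate 2 of the 1 d group. Without replicate 2 of the 1 d group 5 of them fell and without replicate 3 6 did. Arg1, arginase 1, which infiltrating macrophages also express, was at 28.1, 4.28 and 4.34 CPM at 1 d, highest in the library with the highest monocyte markers, and at 0.486, 0.897 and 1.25 CPM at 7 d (-3.83 ± 0.73). Among purine receptors P2ry2 fell from 1.03 to 1.56 CPM to 0.205 to 0.394 CPM, a call lost in each omission except that of replicate 1 of the 1 d group.

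Few genes of other cell types passed the test, although several of these lists had higher sums or medians at 7 d. Of 24 monocyte and macrophage markers Arg1, Cd44 and Fn1 fell, and their median was 0.18, or 1.33 without replicate 1 of the 1 d group. Of 20 neutrophil markers Csf3r, the G-CSF receptor, rose (99.5, 80.3 and 82.7 CPM, then 203, 189 and 209 CPM, with sham at 158 to 187 CPM). The neutrophil median was 0.36, and 1.73 without replicate 1 of the 1 d group. Of 17 border-associated macrophage markers the endocytic adaptor Dab2 fell (182, 484 and 351 CPM, then 35.6, 68.2 and 68.7 CPM), of 22 lymphocyte markers Il7r rose and of 12 astrocyte markers Slc1a3 rose, the last 2 with calls lost in most omissions. The border-associated macrophage list had a median of 0.73, with 16 of 17 values above 0. Lymphocyte markers summed to 173.9, 145.7 and 156.2 CPM at 1 d and 272.7, 211.6 and 214.4 CPM at 7 d, without overlap (exact permutation p = 0.1). No gene passed among 14 neuron, 14 oligodendrocyte lineage, 14 endothelial and mural and 5 red blood cell genes, and the oligodendrocyte list had a median of 0.84 with 13 of 14 values above 0. The part of other cells in the values above was not tested. Without replicate 1 of the 1 d group, the counts that fell were 16 for chaperones, 14 for the cell cycle, 14 for glycolysis, 18 for oxidative phosphorylation and 7 for cytokines.

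Set beside sham microglia, the genes that fell lay near sham at 7 d and most of the interferon, DAM and cytosolic ribosomal protein genes did not. All 7 d libraries were above all sham libraries for 38 of 40, 23 of 35 and 40 of 42 of them, in that order. The median log2 fold change of the 686 genes against sham was 1.53 at 1 d and 0.11 at 7 d, 2 values that share the sham libraries and, with the test above, the mutant libraries. At 7 d the libraries of 513 of these 686 genes (74.8%) overlapped sham, those of 125 (18.2%) were all above and those of 48 all below, where the shares among all genes tested were 84.4%, 8.45% and 7.2%. For the 158 genes that rose the medians were -1.14 at 1 d and 0.23 at 7 d, with 100 overlapping sham, 47 above and 11 below. List medians against sham at 7 d were 2.26 for interferon-stimulated genes, 1.20 for DAM genes, 1.01 for cytokines and 0.79 for ribosomal proteins, compared with 1.07, 1.13, 2.84 and 1.25 at 1 d. They were -0.11 for chaperones (0.93 at 1 d) and -0.49 for homeostatic genes (-1.03 at 1 d).

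**Figure D4:**
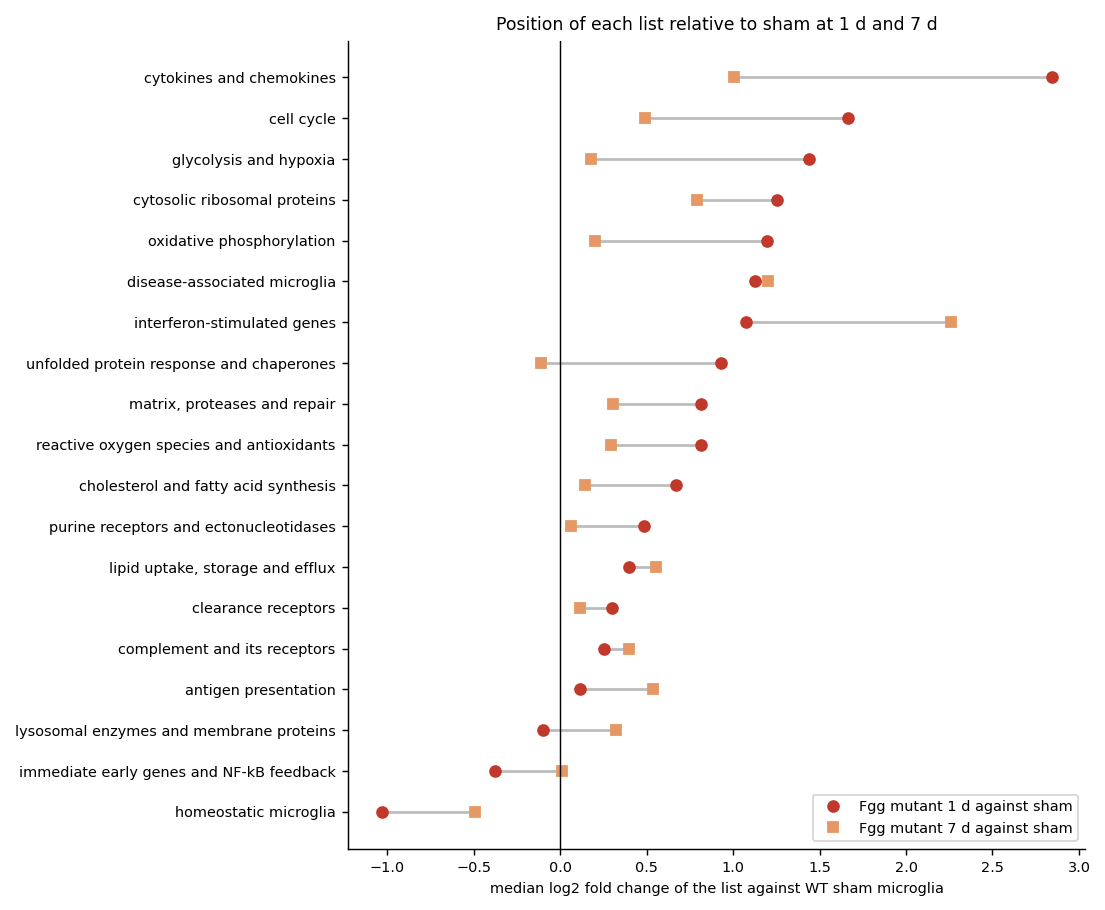
Median log2 fold change of each gene list against WT sham microglia, for mutant microglia at 1 d (circles) and 7 d (squares). Both comparisons use the same 3 sham libraries. Cytokine, cell cycle, glycolysis and respiratory lists move from above 1 toward 0, the interferon list moves from 1.07 to 2.26, and the homeostatic list stays below 0.

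WT microglia moved in the same direction over the same interval, in libraries that are separate from the mutant ones. In them 1682 genes (7.06%) passed, 637 (2.67%) higher and 1045 (4.39%) lower. All 686 genes that fell and all 158 that rose in mutant microglia had the same sign in WT, as 16518 of the 23815 genes tested did, and 581 and 140 of them passed in WT. The median change of the 158 was 1.35 in mutant and 1.78 in WT microglia, and that of the 686 was -1.41 and -1.49. The 158 and 686 were chosen on the mutant values. The difference of the change between genotypes was then tested directly as an interaction. No gene passed at an adjusted p below 0.1 in edgeR's quasi-likelihood test, and DESeq2 called 33. In the edgeR test 653 genes (2.74%) had an unadjusted p below 0.05, a share smaller than that cutoff itself. For Msr1 the difference, mutant minus WT, was -0.07 (95% interval -1.34 to 1.20) and for Mcm2 -0.02 (-0.94 to 0.90), intervals that still hold differences of about 2-fold.

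**Figure D5:**
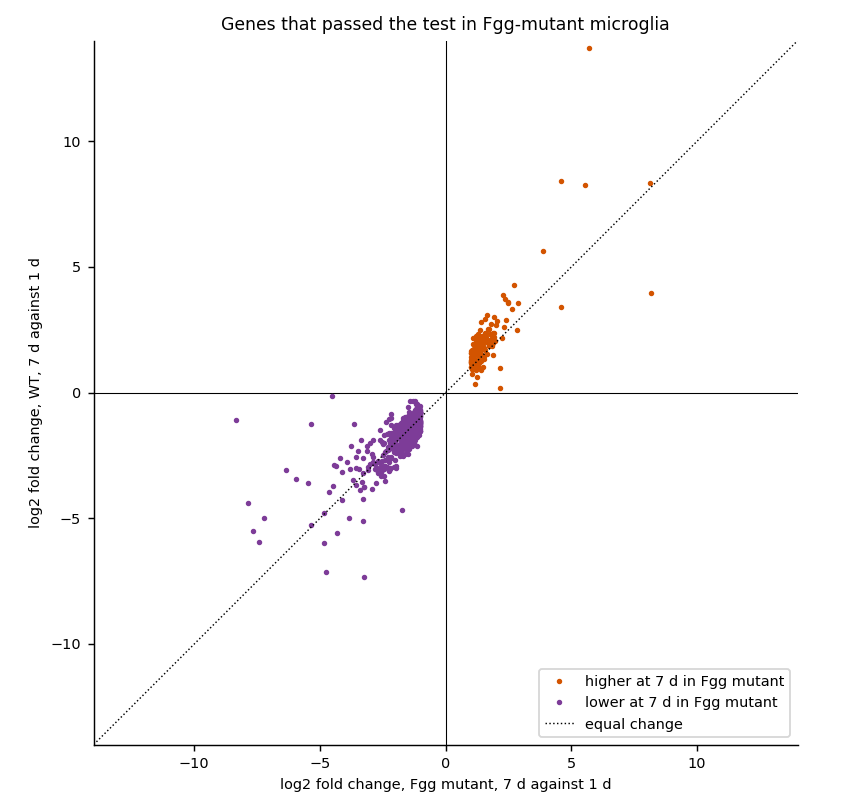
Log2 fold change, 7 d against 1 d, of the genes that passed the test in mutant microglia, in mutant (x axis) and WT microglia (y axis). Each point is a gene, and the dotted line marks equal change. All points lie in the lower left or upper right quadrant, because each of the 844 genes had the same sign in WT.

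Genes with the smallest interaction p-values in each direction are given as values, since none passed the adjustment. Slc7a11, the cystine and glutamate exchanger, was in mutant microglia at 1.64, 3.67 and 3.29 CPM at 1 d and 1.13, 0.754 and 0.61 CPM at 7 d, and in WT at 7.67, 7.71 and 28.9 CPM and then 0.43, 0.691 and 0.618 CPM (difference 2.90, 95% interval 1.37 to 4.42, edgeR, unadjusted p = 0.00079). Gpd2, mitochondrial glycerol-3-phosphate dehydrogenase, had a change of 0.02 in mutant and -1.53 in WT microglia. Pilrb1, an activating receptor, had -0.71 and -4.14, and Sf3a1, a splicing factor, 0.59 and -1.47. Hist1h4f, whose difference was also above 0, was listed at 0 in all WT libraries at 7 d, so no fold is given. In the other direction Hacd4 rose by 1.63 in mutant and 3.08 in WT microglia. AA645442, Gm37979 and Nccrp1 were listed at 0 in all WT libraries at 1 d, so no fold is given for them. For Apoe the difference was -1.79 (unadjusted p = 0.032), with 7 d levels of 2279 to 3340 CPM in mutant and 5544 to 6177 CPM in WT microglia. For Hmox1 it was 0.98 (edgeR, unadjusted p = 0.024). Mertk had a difference of -0.67 (edgeR, unadjusted p = 0.010). By list, the interaction was below 0 for 39 of 40 interferon-stimulated, 34 of 35 DAM and 32 of 34 homeostatic genes, and for 52% of all genes tested. In the same order the median changes were 0.86, 0.18 and 0.45 in mutant and 1.90, 0.39 and 0.85 in WT microglia. In WT, 28 interferon-stimulated and 13 homeostatic genes rose, against 2.67% of all genes. In mutant microglia 4 and 1 rose, against 0.663% of all genes. Without replicate 3 of the mutant 1 d group the mutant interferon median was 1.59 and 18 of its genes rose. Members of a list share libraries and are not independent, so these counts carry no test.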

How the data were processed

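Bulk RNA-seq was made from FACS-sorted CD45low CD11b+ microglia and CD45hi CD11b+ infiltrating myeloid cells (21 libraries, 7 groups of 3, 2 brains pooled per library). Reads came from a low-input NuGEN kit and were processed by the authors with nf-core/rnaseq, trimgalore and salmon on GRCm38. The deposited values are estimated counts per gene, which the authors made with salmon and scaled for transcript length. They need not be whole, and 56.8% of the genes had such a value. The authors' own tests used DESeq2 (1.36.0 in R 4.2.0, per the labels) and are not used here.

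Here counts were rounded, genes with fewer than 5 counts in all were dropped, and all 21 libraries were fitted together with 1 term per group (edgeR 4.0.16, TMM scaling, quasi-likelihood test, R 4.3.3). Genes were called at a Benjamini-Hochberg adjusted p below 0.05 and an absolute log2 fold change above 1, and the difference between genotypes at an adjusted p below 0.1. Gene symbols and types came from GENCODE M21, which matched 45143 of 45706 identifiers, and promoters from RefSeq GRCm38.p6. A count of 0 allows up to 3 counts per library, 0.045 to 0.12 CPM in the compared libraries. The test was checked on simulated data for the mutant change over time, and not for the difference between genotypes. With 200 of 23815 genes changed by an absolute log2 fold change of 2, edgeR recovered 115 (57.5%) and called 3 others. The 200 were drawn only from genes above a minimum mean count over all libraries, so recovery of weakly expressed genes was not checked. DESeq2 recovered 147 (73.5%) and called 48 others. With no gene changed, edgeR called 0 and DESeq2 16.

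Genes named were, for each direction, the 12 called protein-coding genes of lowest adjusted p whose libraries did not overlap between the 2 days. Further genes were up to 4 per list and direction, a fixed set of microglial and inflammatory genes, and the 5 smallest interaction p-values per direction. Others were named after their values were seen. A gene that this rule names is not reported here. The members and lists were chosen with earlier results of these data known. Alternatives were DESeq2 1.42.0, its size factors, other count filters, removal of ribosomal RNA genes, fewer libraries, a replicate block and omission of single libraries.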

Additional observations from a re-analysis of the deposited data

Results flagged for a closer look

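Sf3a1, a subunit of the U2 splicing particle, moved in opposite directions in the 2 genotypes, with no overlap between days in either. In mutant microglia it was at 12.9, 24.5 and 20.9 CPM at 1 d and 25.6, 26.9 and 35.5 CPM at 7 d. In WT it was at 28.4, 42.8 and 53.3 CPM and then 14.8, 18.3 and 11.8 CPM, while sham was at 34.2, 21 and 31.7 CPM. The difference of the log2 changes, mutant minus WT, was 2.06 (95% interval 0.99 to 3.14, edgeR, unadjusted p = 0.00075, adjusted p = 1.0), so it did not pass the adjustment over 23815 genes.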

How the results depend on the processing

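The 844 calls were 463 to 1163 when single libraries of the comparison were left out and 1343 with no bar on the fold change. The other settings gave 728 to 1209, DESeq2 the most. DESeq2 shared 735 of the 844 genes, and the fit on the 6 compared libraries alone shared 768. Lower genes made up 71.7% with DESeq2 size factors and 61.3% with DESeq2, against 81.3%. DESeq2 called 33 genes for the difference between genotypes where edgeR called 0 under each of its settings. The WT count stayed within 1.5 times of 1682 in each setting tried, with 46.9% lower in DESeq2 against 62.1%. The signs of Cx3cr1 and Tmem119, both near 0 and past no test, turned: Cx3cr1 was 0.095 with DESeq2 and with its size factors, 0.038 with the expression filter, 0.0031 with the replicate block and between -0.062 and 0.071 when single libraries were left out, and Tmem119 between -0.019 and 0.21. Fgg, at a few counts, was between -0.11 and 1.64 in those omissions. Of 88 named genes that passed, 63 passed in all 14 settings. The number of lists with a median below 0, 10 of 28, stayed within 1.5 times in each setting.

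The replicate numbers did not pair the libraries. Deviations of same-numbered 7 d and 1 d mutant libraries correlated at -0.049, 0.019 and 0.088, and only replicate 3 correlated best with its own number. With the replicate block 878 genes passed for the mutant, 1732 for WT and 0 for the difference, and 12 interferon-stimulated genes rose in place of 4.

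Depth was 24448811 counts or more, 47.1% to 52.73% of them on ribosomal RNA genes, so genes below about 1 CPM, such as Timp1 or Hist1h4f, rest on few reads. The intervals come from the quasi-likelihood fit and include the spread between libraries, while the floors cover counting error only.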
